A study of Mus musculus with 30 samples.

Results

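The classical complement pathway was followed through 9 of the 21412 genes in the deposited table of normalized counts. These were the 3 C1q chains C1qa, C1qb and C1qc, the central component C3, and the paired genes C4a and C4b. The others were the anaphylatoxin receptors C3ar1 and C5ar1 and the inhibitor Serping1. Their rows were found by matching the Ensembl identifiers of the table to these symbols, and all 9 were found. The genes were chosen with the difference between HD and Ctr mice in view, so their values in these groups are given as a description without a test. Tests of the 9 genes were made in the selenium groups, whose libraries had no part in that difference. Earlier results of these data were known when these genes and the lists of further genes below were chosen.

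RNA came from the hippocampus of male BALB/c mice in 6 dietary groups of 5 mice. Ctr mice ate a purified feed to which a cysteine stock without mercury had been added. Methylmercury (MeHg), bound to cysteine, was added at 0.28 mg per kg feed for LD and at 5 mg per kg feed for HD. These mice arrived at an age of 2 to 3 weeks, were housed singly, acclimatized for 5 days and then fed for 11 weeks. Se_Ctr, Se_LD and Se_HD mice received selenium without mercury, with the low dose or with the high dose; the series title names the compound as selenium-methionine. The amount of selenium, the mercury doses in mg and the age and time of feeding of these 3 groups are not given in the sources used here. For them, low and high dose follow the group names only. All groups were males of a single inbred strain, and each library was made from 1 RNA sample.

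Complement is a cascade of proteins that label material for removal. C1q, built from the chains of 3 genes and made in the brain mainly by microglia, binds a target and starts the classical pathway, in which C4 and then C3 are cut and their larger fragments become attached to the target. The small fragments C3a and C5a signal through the receptors C3ar1 and C5ar1, while the protein encoded by Serping1, C1 inhibitor, holds the proteases of the C1 complex in check. In the brain this pathway is known for its part in the removal of synapses and in the response of glia to injury, and C4b is a known gene of reactive astrocytes.

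Reads on genes lay between 5768208 and 11510521 per library, with a median of 9351470.5. HD library 21 stood apart, since its median correlation with the other libraries over all genes was 0.954, against 0.970 for the next lowest library (Ctr library 1). It also had the highest value among the HD mice for all 9 genes, so the log2 differences between HD and Ctr mice are also given without it, as are the marker sums and counts. Markers of neurons, astrocytes, oligodendrocytes and microglia were present in every group, and no gene of these lists was at 0 in all libraries of a group. A bulk tissue library cannot tell fewer cells of a type from less RNA per cell.

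Per length of exon, C1qa was the most abundant of the 9 genes in Ctr mice, with 226 ± 35.2 normalized counts per kb (SD, n = 5). C1qb followed with 111 ± 22.4, C1qc with 51.8 ± 11.7, C4b with 44.1 ± 5.68 and Serping1 with 20.3 ± 8.71 counts per kb. C4a stood at 8.42 ± 1.17, C3ar1 at 6.22 ± 2.35, C3 at 1.93 ± 0.760 and C5ar1 at 1.72 ± 1.22 counts per kb. The neighbours C1qc and C4b, C4a and C3ar1, and C3 and C5ar1 did not differ beyond their spread. In Se_HD mice C4b was at 67.0 ± 7.73 and C1qc at 52.9 ± 8.66 counts per kb. In Se_Ctr mice C1qc (47.3 ± 6.31) and C4b (37.8 ± 8.81) did not differ beyond their spread. C5ar1 rested on 0 to 43 reads per library and C3 on 4 to 138, so their values carry a large counting error.

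**Figure D1:**
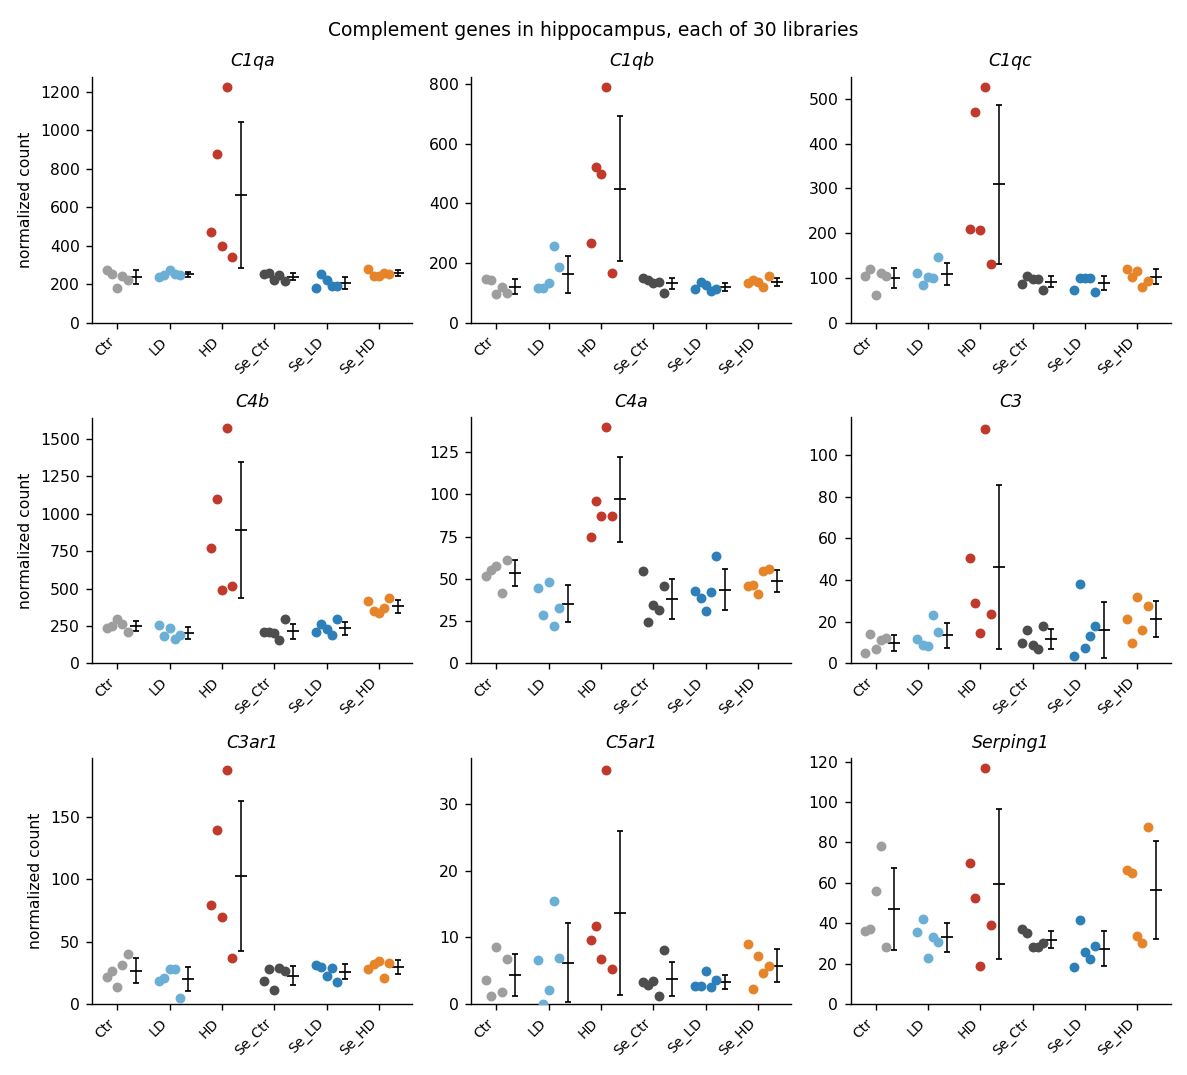
Normalized counts of the 9 complement genes (vertical axes, linear and starting at 0) in each library of the 6 groups. Points are libraries, and the bar to the right of each group gives the mean and the SD of its 5 libraries. HD values are spread widely, with library 21 the highest in every panel, and C4b is the gene whose 5 Se_HD libraries lie above all Se_Ctr and Se_LD libraries.

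The 3 C1q genes lie side by side on chromosome 4 within 18675 bases of the NCBIM37 build, all on the minus strand (C1qb at chr4:136436044-136442102, C1qc at chr4:136445719-136448980 and C1qa at chr4:136451832-136454718). The stretch before the start site is shown for C1qb and C1qc because theirs were the 2 of the 5 matched promoters that held the letters marked below. HD libraries 21 and 9 held the highest and the next highest value of both genes. The same was true of C1qa, C4a, C4b, C3ar1 and C5ar1. In Se_HD mice the order of the mice differed between the genes, with library 30 highest for C1qb and library 6 for C1qc. Both stretches come from RefSeq on GRCm38.p6, where coordinates differ from those of the build above. They run from 250 bases before to 50 bases after the start site. Among the 9 genes, C1qb, C1qc, C3, C3ar1 and C5ar1 were matched in the promoter table. Capitals mark the letters GAGGAA or, read from the other strand, TTCCTC, the core of the site bound by PU.1, a transcription factor of microglia and macrophages.
C1qb, chr4:136886151-136886450 (minus strand): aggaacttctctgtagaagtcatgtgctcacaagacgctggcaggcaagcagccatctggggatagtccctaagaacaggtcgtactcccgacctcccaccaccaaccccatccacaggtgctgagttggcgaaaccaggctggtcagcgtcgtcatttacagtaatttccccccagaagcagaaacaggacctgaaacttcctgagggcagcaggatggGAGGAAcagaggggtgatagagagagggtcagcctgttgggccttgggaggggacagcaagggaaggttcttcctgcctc
C1qc, chr4:136892865-136893164 (minus strand): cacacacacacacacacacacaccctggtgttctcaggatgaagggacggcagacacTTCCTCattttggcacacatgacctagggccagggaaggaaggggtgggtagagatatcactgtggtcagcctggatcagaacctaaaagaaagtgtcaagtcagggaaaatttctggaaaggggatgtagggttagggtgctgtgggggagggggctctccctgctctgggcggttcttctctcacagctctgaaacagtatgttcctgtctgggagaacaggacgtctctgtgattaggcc
These letters began 30 bases before the start site of C1qb and 193 bases before that of C1qc, and they were in 2 of the 5 promoters. They are common, since 28.3% of the 32851 mouse promoters of the table held them. The STAT element TTCNNNGAA, searched on both strands as well, was in 0 of the 5 promoters and in 8.30% of all. A match describes the letters only and is not a measured binding site.

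C1qa encodes the A chain of C1q. Its normalized counts were 275.3, 253.2, 178.7, 243.8 and 222.0 in the 5 Ctr mice and 236.3, 247.6, 273.0, 253.7 and 245.2 in the LD mice. In the HD mice they were 470.2, 876.5, 398.1, 1226.7 and 342.9 (libraries 3, 9, 15, 21 and 27). Every HD mouse was thus above every Ctr and LD mouse, and libraries 9 and 21 were far above the other 3. The mean was 663 ± 379 in HD against 235 ± 36.7 in Ctr mice (SD, n = 5), a log2 difference of 1.33 (SE 0.24), or 1.07 without library 21.

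On selenium C1qa lay near its control level at the high dose. Se_Ctr mice had 253.2, 259.2, 219.6, 247.3 and 215.1 normalized counts, Se_LD mice 179.6, 250.01, 222.5, 188.5 and 189.1, and Se_HD mice 280.6, 243.2, 241.5, 255.9 and 255.0. The Se_HD mice overlapped the Se_Ctr mice, with a log2 difference of 0.10 and a 95% interval from -0.10 to 0.29 (limma, unadjusted p = 0.309, adjusted p = 1.00). Se_LD mice lay a little lower than Se_Ctr mice (log2 difference -0.22, limma, unadjusted p = 0.0282, adjusted p = 1.00), with 3 of 5 mice below every Se_Ctr mouse. Se_HD lay above Se_LD by 0.32 (limma, unadjusted p = 0.00273, adjusted p = 0.834).

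C1qb and C1qc encode the other chains of the molecule. For C1qb the HD mice had 268.4, 521.6, 497.7, 790.0 and 164.9 normalized counts, and the Ctr mice 147.3, 143.2, 95.3, 119.0 and 98.0. The HD and Ctr groups did not overlap, but HD library 27 was close to the highest Ctr mouse, and the LD mice (114.5 to 257.5, median 133.9) overlapped both groups. C1qc was at 209.8, 471.6, 207.1, 526.4 and 129.99 in HD mice and between 61.3 and 120.2 in Ctr mice. It too was higher in every HD mouse than in every Ctr mouse, with libraries 9 and 21 again highest. The log2 differences were 1.71 (SE 0.31) for C1qb and 1.45 (SE 0.29) for C1qc, and 1.46 and 1.21 without library 21.

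In the selenium groups C1qb lay between 99.5 and 148.9 in Se_Ctr, 105.4 and 137.2 in Se_LD and 119.9 and 154.8 in Se_HD mice. C1qc lay between 72.6 and 103.5, 68.0 and 100.2, and 79.3 and 120.1 in the same groups. All 3 groups overlapped for both genes. Between Se_HD and Se_Ctr mice the log2 difference was 0.06 (95% interval -0.18 to 0.30) for C1qb and 0.16 (95% interval -0.15 to 0.46) for C1qc, with limma's adjusted p = 1.00 for both.

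The proportion of the chains to each other varied between mice. The ratio of C1qa to C1qc was 2.40 ± 0.353 in Ctr, 2.40 ± 0.497 in LD, 2.20 ± 0.318 in HD, 2.64 ± 0.301 in Se_Ctr and 2.55 ± 0.442 in Se_HD mice (SD, n = 5). C1qa to C1qb was 1.96 ± 0.195 in Ctr, 1.71 ± 0.530 in LD and 1.57 ± 0.474 in HD mice, and 1.83 ± 0.198 in Se_Ctr and 1.88 ± 0.229 in Se_HD mice. It ranged from 0.985 to 2.16 in LD and from 0.800 to 2.08 in HD mice. The lowest HD ratio came from library 15, whose C1qb count (497.7) exceeded its C1qa count (398.1), and the lowest LD ratio from library 20 (257.5 against 253.7).

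C4b and C4a are a pair of genes of like sequence on chromosome 17. C4b lies at chr17:34865325-34880827 and C4a, annotated as a processed transcript, at chr17:34946037-34960409, both on the minus strand of NCBIM37. Their transcripts, of 41 exons each, were identical at 96.1% of 5367 aligned bases. Of the windows of the 75-base read length in the C4b transcript, 23.5% also occurred in C4a, and reads from those windows cannot be assigned to either gene. The stretch of 60 bases with the most differences is shown because it tells the genes apart, with capitals at the 13 differing bases.
C4b, chr17:34872375-34872434 (minus strand): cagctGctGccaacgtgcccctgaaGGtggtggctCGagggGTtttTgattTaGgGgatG
C4a, chr17:34953031-34953090 (minus strand): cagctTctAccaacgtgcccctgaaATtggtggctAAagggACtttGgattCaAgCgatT
How the counting treated reads that match both genes is not given in the sources used here, so the split between C4b and C4a is uncertain.

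C4b was higher in every high-dose mouse than in every control mouse on both diets. The Ctr mice had 233.0, 249.3, 296.1, 265.5 and 210.7 normalized counts and the LD mice 255.5, 184.2, 238.5, 159.7 and 186.8. The HD mice had 771.5, 1101.5, 492.3, 1572.7 and 519.1. The lowest HD mouse was well above the highest Ctr mouse, and the mean was 3.55 times that of the Ctr mice, or 2.87 times without library 21. This was a log2 difference of 1.69 (SE 0.23), or 1.45 without library 21.

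Among selenium-fed mice C4b was again highest at the high dose. Se_Ctr mice had 209.3, 207.0, 205.7, 158.2 and 296.6 normalized counts and Se_LD mice 206.4, 261.7, 227.5, 188.5 and 296.3, while Se_HD mice had 417.6, 349.9, 335.0, 367.4 and 437.1. All 5 Se_HD mice were above all 5 Se_Ctr mice and all 5 Se_LD mice. The mean was 381 ± 44.0 in Se_HD against 215 ± 50.2 in Se_Ctr mice (SD, n = 5), 1.77 times as high. The log2 difference was 0.84 (SE 0.14, 95% interval 0.56 to 1.13) with limma's unadjusted p = 4.97e-06, the lowest of 19679 genes tested. Its adjusted p of 0.0979 in limma missed the threshold of 0.05. DESeq2 on the recovered reads gave an adjusted p of 0.000288 and edgeR 0.108. Leaving out single mice gave adjusted p-values from 0.00366 to 0.612 in limma, and 1 of these 10 fits was under 0.05. The lowest came without Se_Ctr library 28, the Se_Ctr mouse with the most C4b. The highest came without Se_HD library 30, the Se_HD mouse with the most C4b. Over the alternatives other than leaving out a mouse, the adjusted p of limma, edgeR or DESeq2 ran from 0.000288 to 1.00, and all kept the direction. An exact two-sided permutation test on C4b alone gave p = 0.00794, the smallest that 5 against 5 mice can give. Groups of this size without overlap always give this value, so it restates that pattern.

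Against Se_LD mice, a comparison that shares the Se_HD mice, the log2 difference of C4b in Se_HD mice was 0.70 (SE 0.14, limma, unadjusted p = 5.19e-05, adjusted p = 0.305), the third lowest p among all genes. DESeq2 gave an adjusted p of 0.0104 for this comparison. The low dose itself gave a log2 difference of 0.14 (95% interval -0.14 to 0.43) between Se_LD and Se_Ctr mice. Without selenium LD mice stood at -0.30 relative to Ctr mice, with 3 of 5 LD mice below every Ctr mouse and the other 2 within the Ctr range. The Se_HD value of 0.84 and the HD value of 1.69 are set side by side without a test of their difference, since the second was used to choose the gene.

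C4a was counted at 74.7, 95.8, 87.4, 139.6 and 87.2 in HD mice and between 41.6 and 60.8 in Ctr mice, which did not overlap. HD exceeded Ctr by 0.83 (SE 0.22) on the log2 scale, or by 0.69 without library 21. LD mice, at 21.9 to 48.1, lay mostly below the Ctr mice with a log2 difference of -0.63. In Se_HD mice C4a lay between 40.9 and 55.8, against 24.7 to 54.6 in Se_Ctr mice, a log2 difference of 0.39 (95% interval -0.05 to 0.82, limma adjusted p = 1.00). The ratio of C4b to C4a was 4.80 ± 1.07 in Ctr, 8.93 ± 2.91 in HD, 5.93 ± 1.70 in Se_Ctr and 7.87 ± 0.870 in Se_HD mice (SD, n = 5).

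C3, on which the pathways of complement activation converge, lies at chr17:57343397-57367559. Its counts were low, at 4.8, 14.1, 6.8, 11.3 and 12.4 in Ctr mice and 50.6, 29.2, 14.8, 112.6 and 23.6 in HD mice. The groups did not overlap, but the lowest HD mouse (library 15) was within 1 normalized count of the highest Ctr mouse. On the log2 scale the difference was 1.85 (SE 0.44), or 1.44 without library 21. In the selenium groups C3 was at 9.9, 16.1, 8.6, 7.0 and 17.9 in Se_Ctr mice and at 21.3, 9.9, 31.8, 16.1 and 27.3 in Se_HD mice. They overlapped, with a log2 difference of 0.76 whose 95% interval ran from -0.15 to 1.68 (limma, unadjusted p = 0.0970, adjusted p = 1.00), and the upper bound lay above the 0.84 of C4b.

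C3ar1, the receptor of C3a, lies at chr6:122797156-122806179. Ctr mice had 21.7, 26.9, 13.6, 31.2 and 40.6 normalized counts, and HD mice had 79.6, 139.1, 69.9, 187.7 and 36.6. Only HD library 27 fell within the Ctr range. On the log2 scale HD mice were higher by 1.77 (SE 0.43), or 1.499 without library 21. Se_HD mice, at 20.8 to 34.5, overlapped Se_Ctr mice at 11.2 to 29.3, with a log2 difference of 0.42 (95% interval -0.10 to 0.94, limma adjusted p = 1.00).

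C5ar1, the receptor of C5a, lies at chr7:16832092-16844889 and was near the limit of the counts. It was at 9.6, 11.7, 6.7, 35.1 and 5.2 in HD mice and at 1.3 to 8.5 in Ctr mice, so library 21 stood far above the rest and the groups overlapped. The log2 difference of 1.34 (SE 0.63) was 0.94 without that library. Se_HD mice were between 2.3 and 9.0 and Se_Ctr mice between 1.2 and 8.1, a log2 difference of 0.57 (95% interval -0.22 to 1.36, limma adjusted p = 1.00).

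Serping1 lies at chr2:84605544-84615601 and was the member with the smallest difference at the high dose without selenium. HD mice had 69.9, 52.5, 18.8, 116.7 and 39.3 normalized counts and Ctr mice 36.2, 37.1, 56.1, 78.4 and 28.2. The groups overlapped widely. On the log2 scale they differed by 0.19 (SE 0.36), and by -0.11 without library 21. In Se_HD mice Serping1 was at 66.2, 64.8, 33.6, 30.2 and 87.6, against 28.1 to 37.2 in Se_Ctr and 18.5 to 41.5 in Se_LD mice. Libraries 6, 12 and 30 were above all Se_Ctr and Se_LD mice, while libraries 18 and 24 were within the range of both. The log2 difference was 0.70 against Se_Ctr (SE 0.26, limma, unadjusted p = 0.0137, adjusted p = 1.00) and 0.95 against Se_LD (SE 0.26, limma, unadjusted p = 0.00148, adjusted p = 0.735).

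The same 3 libraries were the highest of the Se_HD mice for 5 of 6 markers of meningeal fibroblasts (Dcn, Lum, Col1a1, Col1a2 and Slc6a20a). Col1a1, a collagen chain, was at 167.3, 103.7 and 150.2 in libraries 6, 12 and 30 and at 51.8 and 55.7 in libraries 18 and 24, against 49.3 to 72.2 in Se_Ctr mice. Lum, another gene of fibroblast matrix, was at 78.6, 57.9 and 75.1 in the first 3 and at 35.4 and 37.8 in the other 2. Of the 6 markers of this list, 5 had an unadjusted p under 0.05 between Se_HD and Se_Ctr mice in limma, all higher, against 2.43% of all genes in that direction, and 0 had an adjusted p under 0.05. Their summed level was 4531 to 6769 in Se_HD and 1751 to 4273 in Se_Ctr mice, which did not overlap, and 2998 to 6521 in HD and 1693 to 5147 in Ctr mice, which did. Igf2 made up 80.8% of this sum over all libraries. Without it the sums were 557 to 1598 in Se_HD and 352 to 860 in Se_Ctr mice, which overlapped. The part of these cells in the Serping1 values was not tested. In libraries 18 and 24 the remaining marker, Igf2, was above every Se_Ctr mouse and the other 5 were not, and the sums there (6025 and 5540) were above all Se_Ctr sums as well. C4b was at 335.0 and 367.4 in these 2 libraries, against 296.6 in the highest Se_Ctr mouse.

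**Figure D2:**
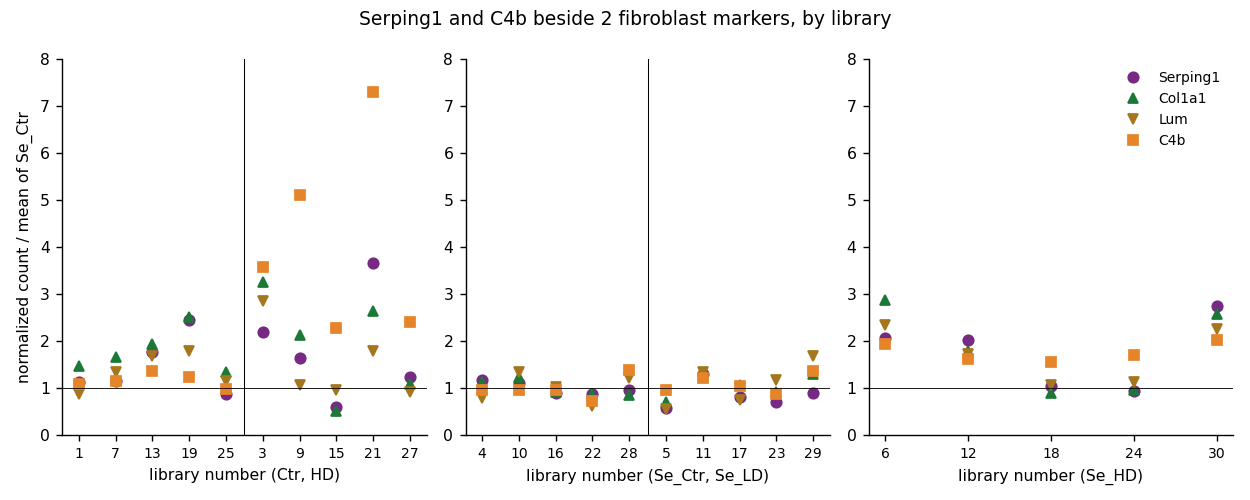
Normalized counts of Serping1, C4b and the fibroblast markers Col1a1 and Lum in single libraries, each divided by the mean of its gene in the 5 Se_Ctr libraries (vertical axis, linear). In Se_HD libraries 18 and 24, Serping1 and both markers lie near 1 while C4b stays above 1.5.

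Counted together, 6 of the 9 genes (C1qa, C1qb, C1qc, C3, C4a and C4b) were higher in all 5 HD mice than in all 5 Ctr mice, where 0.978% of all genes tested had this pattern. Since the genes were chosen on this comparison, nothing is read from that count. The median log2 difference of the 9 genes was 1.45, or 1.21 without library 21, against 0.01 over all genes tested. The lowest HD value came from library 27 for 5 of the genes, from library 15 for 3 and from library 3 for 1. LD mice did not separate from Ctr mice for any of the 9, where 0.210% of all genes were higher and 0.190% lower in all 5 mice.

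In the selenium groups the log2 difference between Se_HD and Se_Ctr mice was above 0 for 9 of 9 genes, with a median of 0.42 against -0.01 over all genes tested. Unadjusted p-values of limma were under 0.05 for 2 of the 9, C4b and Serping1, against 2.43% of all genes in that direction. Adjusted p-values under 0.05 were found for 0 of the 9 in limma, where 0.00% of all genes reached it, for 0 in edgeR and for 1 (C4b) in DESeq2, against 0.0203% of all genes. The count at an unadjusted p lay between 1 and 4 when single mice were left out, and it was 1 without Se_HD library 30. C4b was the 1 gene of the 9 without overlap between the groups, against 0.478% of all genes. The Se_LD mice differed from Se_Ctr at an unadjusted p under 0.05 in limma for 1 gene, C1qa, which was lower, against 1.51% of all genes, and 0 had an adjusted p under 0.05 in limma, edgeR or DESeq2. That count was 0 without any one of 6 mice (Se_Ctr libraries 4, 10 and 22, Se_LD libraries 23, 29 and 5) and 3 without Se_Ctr library 28. Se_HD mice were above Se_LD mice at an unadjusted p under 0.05 for 3 genes, C4b, Serping1 and C1qa, against 2.36% of all genes, and C4b again did not overlap, against 0.335%. By adjusted p there were 0 in limma, where 0.00% of all genes passed, 0 in edgeR and 1 (C4b) in DESeq2, against 0.0356%.

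**Figure D3:**
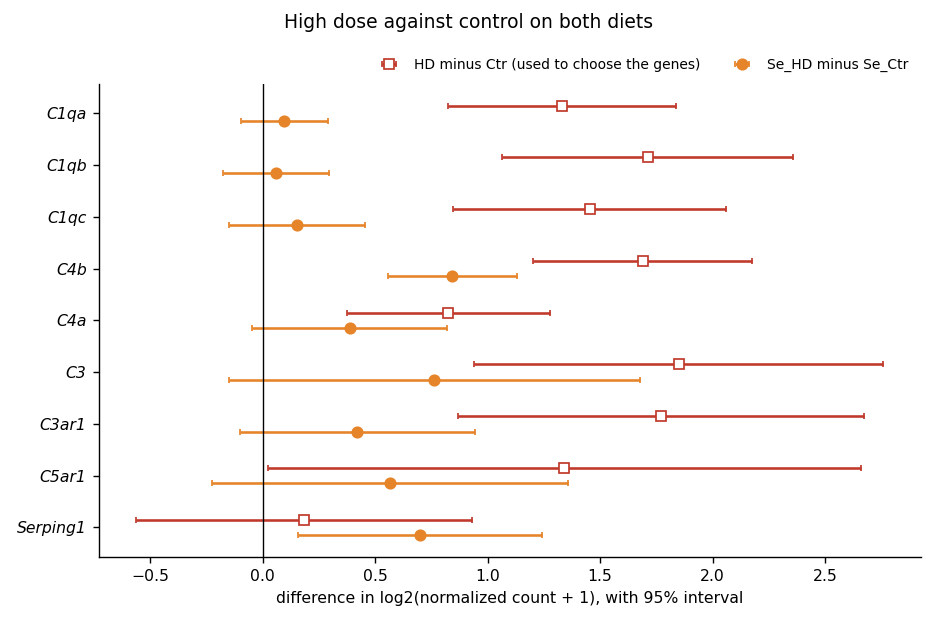
Differences in log2(normalized count + 1) between high dose and control (horizontal axis, with 95% intervals from limma) for the 9 genes, without selenium (open squares, the comparison on which the genes were chosen) and with selenium (filled circles). The selenium intervals of the C1q genes lie around 0, and that of C4b lies between 0.56 and 1.13.

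The rest of the complement system was followed through a list of 50 further genes, of which 40 were in the table. In HD against Ctr mice 36 of them could be tested, and limma's unadjusted p was under 0.05 for 3, all higher, against 5.08% of all genes in that direction. These were Clu, Itgam and Itgb2. By adjusted p there were 0 in limma, against 0.130% of all genes, 1 (Clu) in edgeR, against 0.225%, and 3 in DESeq2, against 0.978%. The median log2 difference of the 36 genes was 0.10, or 0.07 without library 21. By role, 1 of 5 inhibitors of the fluid phase and 2 of 9 receptors were among the 3 genes, and 0 of 4 initiators of the classical pathway, 0 of 5 of the lectin pathway, 0 of 1 of the alternative pathway, 0 of 3 terminal components and 0 of 9 membrane inhibitors.

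Clu encodes clusterin, a secreted inhibitor of the terminal complex that astrocytes make in quantity. Its mean was 9287 ± 1284 normalized counts in HD against 6174 ± 721 in Ctr mice (SD, n = 5), and the groups did not overlap. This was a log2 difference of 0.59 (limma, unadjusted p = 7.96e-05, adjusted p = 0.0550), and 0.54 without library 21. In Se_HD mice Clu was at 6864 ± 404 against 6107 ± 219 in Se_Ctr mice, which did not overlap either, with a log2 difference of 0.17 (limma, unadjusted p = 0.0120, adjusted p = 1.00). The effect of the high dose with selenium minus that without was -0.42 on the log2 scale, a difference with an unadjusted p under 0.05 in limma's interaction contrast but not an adjusted one.

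Itgam and Itgb2 encode the chains of complement receptor 3, which binds C3 fragments on microglia. Itgam was at 274.9, 454.1, 271.7, 818.6 and 200.7 in HD and at 136.8 to 208.9 in Ctr mice, so all but HD library 27 lay above the Ctr range. The log2 difference was 1.09 (limma, unadjusted p = 0.000311, adjusted p = 0.109), and 0.79 without library 21 (limma adjusted p = 0.134). It was 1.29 with an adjusted p of 0.0163 in limma when library 27 was left out. Of the 10 fits of Itgam without single mice this was the 1 under 0.05, and the highest adjusted p was 0.236. Itgb2 was at 57.1, 121.6, 16.1, 154.3 and 47.1 in HD and at 17.0 to 33.8 in Ctr mice, with a log2 difference of 1.31 (limma, unadjusted p = 0.00544, adjusted p = 0.274), and 0.97 without library 21. Here HD library 15 was below all Ctr mice. Without it the log2 difference was 1.77 with limma's adjusted p = 0.0228, against an adjusted p of 0.672 without library 21. Of the 10 fits of Itgb2 without single mice, 1 had an adjusted p under 0.05. In Se_HD against Se_Ctr mice neither gene stood apart, at -0.01 for Itgam (95% interval -0.22 to 0.21) and 0.23 for Itgb2 (95% interval -0.16 to 0.61).

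For Itgam the effect of the high dose with selenium minus that without was -1.10 on the log2 scale, and for Itgb2 it was -1.08. Together with Clu these were the 3 of 40 genes with an unadjusted p under 0.05 in limma's interaction contrast over 30 libraries, against 2.96% of all genes in that direction. By adjusted p there were 0 in limma, edgeR and DESeq2, and 1 (Itgam, adjusted p = 0.0316 in limma) without HD library 27. Of the 20 fits of Itgam without single mice in this contrast, this was the 1 under 0.05. Without HD library 21 its adjusted p in limma was 0.552. Without that library the log2 values were -0.80 for Itgam, -0.75 for Itgb2 and -0.37 for Clu, and Itgb2 no longer had an unadjusted p under 0.05.

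In Se_HD against Se_Ctr mice 4 of 37 genes had an unadjusted p under 0.05 in limma, 3 higher against 2.43% of all genes and 1 lower against 1.76%, and 0 had an adjusted p under 0.05 in limma, edgeR or DESeq2. Beside Clu they included Colec12 and Masp2. Colec12, a collectin listed here with the genes of the lectin pathway, was at 183.0, 174.6, 62.65, 90.7 and 255.0 against 63.6 to 98.5, a log2 difference of 0.79 (limma, unadjusted p = 0.00779, adjusted p = 1.00). Libraries 6, 12 and 30 were above every Se_Ctr mouse and libraries 18 and 24 were not, as for Serping1, Col1a1 and Lum. Masp2, a protease of the lectin pathway, was lower, with 32.7 ± 4.90 in Se_HD against 43.7 ± 4.74 in Se_Ctr mice (SD, n = 5) and a log2 difference of -0.41 (limma, unadjusted p = 0.0254, adjusted p = 1.00).

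At the low dose 1 gene reached an unadjusted p under 0.05 on each diet. In Se_LD against Se_Ctr mice it was Masp2 of 37 genes, with a log2 difference of -0.36 in limma, against 1.51% of all genes that were lower, and in LD against Ctr mice Colec12 of 36 genes, with -0.64, against 1.34% of all genes that were lower. Between Se_HD and Se_LD mice 2 of 37 genes had an unadjusted p under 0.05 in limma, both higher in Se_HD mice against 2.36% of all genes in that direction, among them Colec12 with a log2 difference of 0.59. Adjusted p-values under 0.05 numbered 0 in limma, edgeR and DESeq2 in all 3 comparisons.

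**Figure D4:**
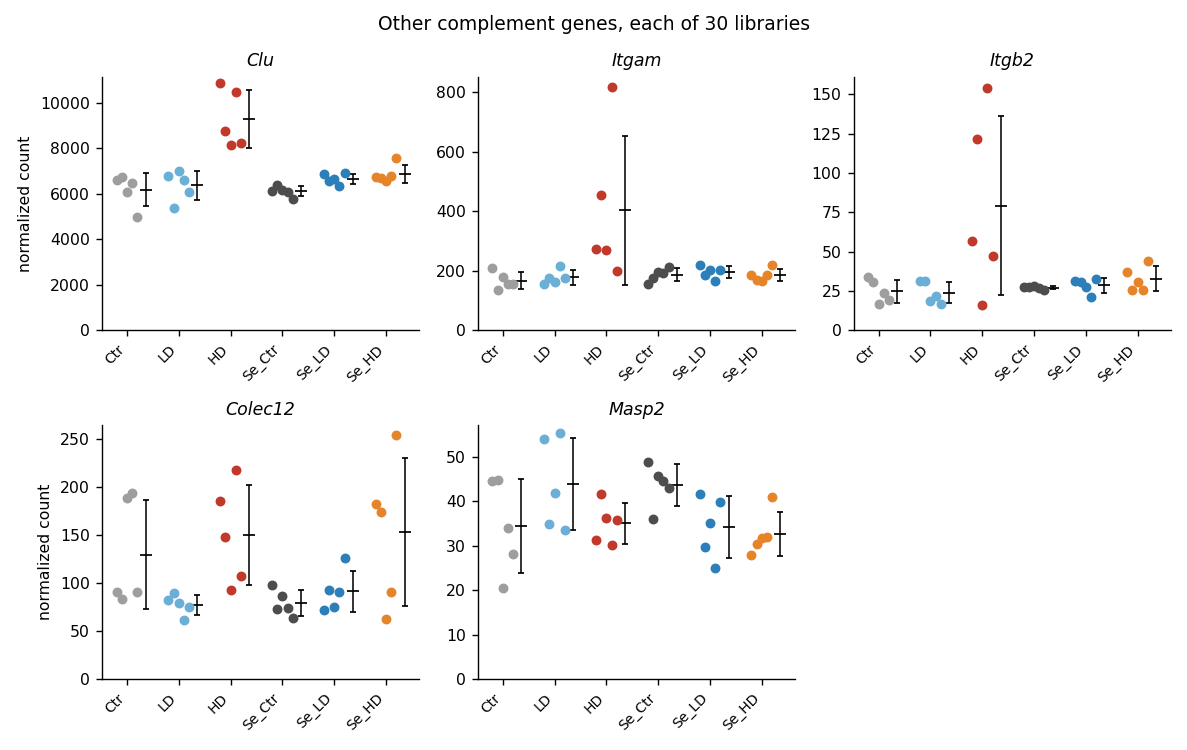
Normalized counts of 5 further complement genes (vertical axes, linear and starting at 0) in each library of the 6 groups. Points are libraries, and the bar to the right of each group gives the mean and the SD of 5 libraries. All 5 HD libraries lie above the Ctr libraries for Clu, 4 of 5 for Itgam and 4 of 5 for Itgb2, and 3 of the 5 Se_HD libraries lie above the Se_Ctr libraries for Colec12.

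Markers of microglia were higher in the HD mice as well. Of 12 microglia markers, 11 had an unadjusted p under 0.05 in HD against Ctr mice in limma, all higher, against 5.08% of all genes in that direction, and 1 an adjusted p under 0.05, against 0.130%. Without library 21 these counts were 10 and 0. Their summed level was 3293 to 6414 in HD and 2655 to 2995 in Ctr mice, which did not overlap, and reached 6036 at most without library 21. Between Se_HD and Se_Ctr mice 0 of 12 had an unadjusted p under 0.05, and the sums, 2844 to 3333 and 2575 to 3403, overlapped. Among them Cx3cr1, the fractalkine receptor of microglia, had a log2 difference of 0.68 in HD (limma adjusted p = 0.0860; 0.62 without library 21) and -0.04 in Se_HD mice, and P2ry12, a purine receptor of resting microglia, 0.36 (limma adjusted p = 0.428; 0.33 without library 21) and 0.07.

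The summed C1q genes as a share of the summed microglia markers were 0.163 ± 0.0326 in Ctr and 0.288 ± 0.0823 in HD mice (SD, n = 5). Without library 21 the HD share was 0.261 ± 0.0641 (SD, n = 4). HD values ran from 0.194 to 0.396, Ctr values up to 0.192 and LD values up to 0.208, so the lowest HD mouse was close to the highest Ctr mouse and within the LD range. In Se_HD mice the share was 0.164 ± 0.0103 and in Se_Ctr mice 0.160 ± 0.0279. What part a higher number of microglia had in the HD values was not tested.

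Reactive astrocyte markers were summed in the same way. They reached 5554 to 44253 in HD against 2604 to 3153 in Ctr mice, and the highest HD sum without library 21 was 14423. They reached 3550.3 to 4412 in Se_HD against 2739.5 to 3764 in Se_Ctr mice. In limma 7 of 8 had an unadjusted p under 0.05 in HD against Ctr mice and 2 of 7 in Se_HD against Se_Ctr mice, all higher, against 5.08% and 2.43% of all genes, with 5 of 8 in HD against Ctr mice without library 21. Gfap, the filament protein of astrocytes, rose by a log2 difference of 2.39 in HD against Ctr mice (limma adjusted p = 0.00716, higher in 5 of 5 mice), or 1.93 without library 21 (limma adjusted p = 0.000225). In Se_HD mice it was at 2546, 2264, 2499, 2491 and 2909, against 1596, 1950, 1637, 1610 and 2165 in Se_Ctr mice, which did not overlap, with a log2 difference of 0.51 (limma adjusted p = 0.728).

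Markers of other cell types were counted in the same way. In HD against Ctr mice 4 of 8 astrocyte markers and 2 of 8 choroid plexus markers had an unadjusted p under 0.05, all higher (3 and 1 without library 21), against 5.08% of all genes, while 0 of 6 oligodendrocyte, 0 of 6 neuron, 0 of 6 hippocampal neuron, 0 of 6 endothelial, 0 of 6 border macrophage, 0 of 5 blood leukocyte, 0 of 5 erythrocyte and 0 of 6 fibroblast markers did. Choroid plexus markers, which come from tissue lying against the hippocampus, varied within every group, from 313 to 37991 in Se_LD mice for example. In HD against Ctr mice 8 of 8 were higher, the median log2 difference being 1.45, with sums of 7106 to 29882 (median 27621) against 861 to 31571 (median 11102). All 8 were also higher in Se_HD than in Se_Ctr mice, with a median log2 difference of 0.73, 0 with an unadjusted p under 0.05 in limma, and sums of 9556 to 35213 (median 28920) against 6332 to 21517 (median 14364). The part of the choroid plexus in these values was not tested. Border macrophage markers, whose cells also make C1q, summed to 51.1 to 122 (median 108) in HD and 54.1 to 128 (median 56.3) in Ctr mice, with 6 of 6 higher in HD mice and a median log2 difference of 0.31. In Se_HD against Se_Ctr mice 4 of 6 were higher, with a median of 0.38 and 0 with an unadjusted p under 0.05 in limma. Their part in the C1q values was not tested.

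The genes whose pattern was most like that of the C1q genes over 30 libraries were Gfap (Pearson r 0.93), Cd68 (0.93), Col16a1 (0.92), Tyrobp (0.91) and Sparc (0.91), among the 11092 genes whose mean reached 50 normalized counts. Cd68 is a lysosomal protein and Tyrobp a signalling adaptor of microglia. For C4b they were Gfap (0.94), Csf1r (0.91), Osmr (0.90), Mpeg1 (0.89) and Tmem176b (0.89). These correlations are a description, since the 5 HD libraries share high values of all these genes. Over the 15 selenium libraries the C1q genes had r of 0.43 with Gfap, -0.01 with Cd68, 0.39 with Col16a1, -0.05 with Tyrobp and 0.53 with Sparc. For C4b the r over these 15 libraries was 0.90 with Gfap, 0.54 with Csf1r, 0.68 with Osmr, 0.87 with Mpeg1, a pore-forming protein of macrophages and microglia, and 0.68 with Tmem176b. Over the 25 libraries other than HD it was 0.74 with Gfap, 0.58 with Csf1r, 0.64 with Osmr, 0.41 with Mpeg1 and 0.66 with Tmem176b. The C1q genes had r of 0.32 with Gfap, 0.29 with Cd68, 0.64 with Col16a1, 0.14 with Tyrobp and 0.57 with Sparc over the same 25 libraries. C4b relative to the summed C1q genes was 0.681 to 0.869 in Se_HD and 0.328 to 0.766 in Se_Ctr mice, and 0.446 to 0.814 in HD and 0.442 to 0.883 in Ctr mice.

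**Figure D5:**
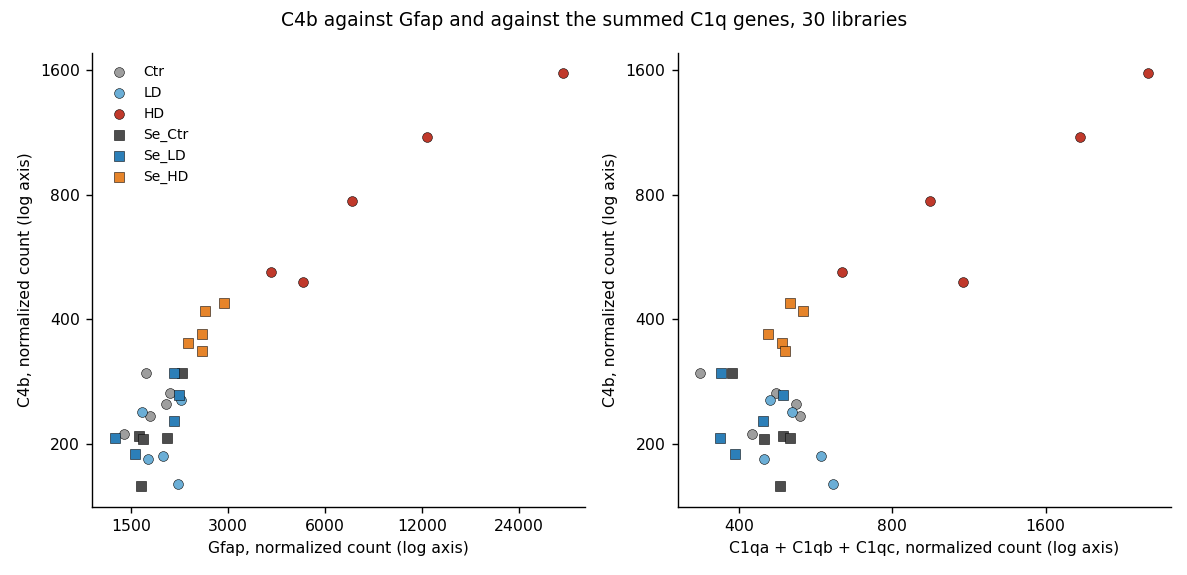
C4b (vertical axes, log scale) against Gfap (left) and against the sum of the 3 C1q genes (right), in normalized counts on log axes, for each of 30 libraries. Round points are mice without selenium and squares mice with it. Se_HD mice (335.0 to 437.1 for C4b) lie above the control and low-dose mice along both Gfap and C4b, but not along C1q.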

How the data were processed

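Per the labels and the methods of the study, RNA was made into stranded TruSeq libraries and sequenced as single reads of 75 bases. The submitters' processing notes name Trim Galore 0.4.2, FastQC, HISAT2, featureCounts and DESeq2 and the build NCBIM37. The deposited values are a signal, which the authors made by dividing reads per gene by DESeq2's size factors, and whole reads were recovered from 100% of them within 0.01 of a read. The annotation of this build gave symbols for 21326 of the 21412 identifiers. The number of value columns not used was 0.

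The log2 of each value plus 1 was fitted with limma 3.58.1 (trend) in R 4.3.3, with 1 coefficient per group, over 15 libraries without selenium (20031 genes) or with it (19679 genes), keeping genes whose values summed to at least 10. The effect of the high dose was compared between the diets over all 30 libraries (21383 genes). P-values were adjusted over all genes tested by the Benjamini-Hochberg method, and 0.05 was the threshold. As alternatives, the pseudocount was set to 0.1 or 10, the filter on low values to a mean of 10 or to none, and the scaling to TMM factors or quantiles; limma was run without trend, and the reads were tested with DESeq2 1.42.0 or edgeR 4.0.16. Further alternatives were all 30 libraries in one fit, sets of 6 consecutive library numbers as a block, and leaving out each mouse. The methods were tested on simulated data. Replicates are separate RNA samples, so p-values measure the spread between these.

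Named are the 9 members, other complement genes with an adjusted p under 0.05 (at most 10 per comparison) or, with none, the 5 or fewer with the lowest unadjusted p under 0.05, the first 4 genes of each marker list, and the 5 genes most correlated with C1q and with C4b. The text names a part of these. A further complement gene is counted but not reported here. The members and lists were chosen with earlier results of these data known. Promoters are from RefSeq on GRCm38.p6. Tables and figures used Python 3.11.15, numpy 2.4.6, pandas 2.3.3, scipy 1.17.1 and matplotlib 3.10.9.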

Additional observations from a re-analysis of the deposited data

Results flagged for a closer look

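Among 90 groups of 5 libraries (15 genes in 6 groups), 3 held a library whose gap to its nearest neighbour, as a share of the group's range, passed Dixon's 95% critical value of 0.71, where chance alone gives about 4.5 (1 in 20). C1qc was at 61.3 normalized counts in Ctr library 13, with a gap of 0.720 of the range. C5ar1 was at 35.1 in HD library 21, with a gap of 0.785. Clu was at 7567 in Se_HD library 30, with a gap of 0.765.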

How the results depend on the processing

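Under the alternatives other than leaving out a mouse, the members kept their direction in the selenium groups, except C5ar1 in Se_LD against Se_Ctr mice (0.0417 with a pseudocount of 0.1 and 0.00263 with TMM factors). Members with an adjusted p under 0.05 numbered 1 (C4b) in place of 0 with DESeq2 and with a replicate block of library sets, in Se_HD against both Se_Ctr and Se_LD mice, and 0 to 1 when single mice were left out of the first of these. The sets are runs of consecutive library numbers and not a labelled batch. Deviations from the group means had a median correlation of -0.02 within sets and -0.003 between them. A median cannot show whether some of the sets deviated together. For C4b the block gave an adjusted p of 0.00317 against Se_Ctr and 0.0360 against Se_LD mice in limma. Members with an unadjusted p under 0.05 in Se_LD against Se_Ctr mice went from 1 to 0 with all 30 libraries in one fit. Without single mice they ran from 0 to 3 there, from 1 to 4 in Se_HD against Se_Ctr and from 3 to 5 in Se_HD against Se_LD mice. The other complement genes with an unadjusted p under 0.05 in Se_LD against Se_Ctr mice went from 1 to 2 with a pseudocount of 0.1, a mean of at least 10, quantile normalization and DESeq2, to 3 with a pseudocount of 10, limma without trend and edgeR, and to 0 with no filter and with all 30 libraries in one fit (0 to 3 without single mice). In Se_HD against Se_LD mice they went from 2 to 0 in limma without trend, 1 with all 30 libraries and 4 with edgeR and DESeq2 (0 to 4 without single mice), and in LD against Ctr mice from 1 to 2 with all 30 libraries (0 to 3). By adjusted p in HD against Ctr mice they went from 0 to 1 with a mean of at least 10 and with edgeR, 2 with all 30 libraries and 3 with DESeq2 (0 to 2 without single mice), and in the comparison between diets from 0 to 1 without HD library 27 (0 to 1). Over all genes, 26 had an adjusted p under 0.05 in HD against Ctr mice in limma, 17 with a pseudocount of 0.1, 11 with one of 10, 0 without trend, 45 in edgeR, 196 in DESeq2 and 200 with all 30 libraries (3 to 76 without single mice, the most without library 27). In Se_HD against Se_Ctr mice 0 became 4 in DESeq2 and 1 with the block (0 to 2 without single mice), in Se_HD against Se_LD mice 1 without trend, 7 in DESeq2 and 1 with the block (0 to 2), and between the diets 11 in DESeq2 (0 to 21). Leaving out single mice changed the sign of C1qb in Se_HD against Se_Ctr mice (-0.0376 to 0.107), of C1qc (-0.141 to 0.0248), C3 (-0.27 to 0.49) and C5ar1 (-0.25 to 0.27) in Se_LD against Se_Ctr mice, and of Serping1 in HD against Ctr mice (-0.11 to 0.53). The cause of these shifts was not tested. At 0 to 43 reads per library C5ar1, and at 4 to 138 reads C3, limit what can be said of either.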
